A study of Mus musculus with 23 samples.

Results

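Integrins and the proteins that tie them to actin were followed in cultured mouse hippocampal neurons whose processes were pulled by magnetic nanoparticles. The gene list names the members by symbol, with no threshold on a measured value. It holds 16 integrin subunits and 19 focal adhesion proteins, 35 of the 55487 gene IDs counted. Its members were chosen with earlier results of these data known, so their values set beside those of all genes are descriptions only. All 35 were found by symbol. The cultures came from C57Bl/6 pups of postnatal day 1. Cells were seeded on the soma side of microfluidic chambers, so that axons could grow through fine channels into a separate compartment. All cultures, controls included, held magnetic nanoparticles at 5 µg/ml. Stretched cultures were kept in a magnetic field gradient of 50 T/m from day in vitro 1 to day 6, and control cultures in a null gradient. RNA was taken from the axonal compartment (control, n = 5 libraries, and stretched, n = 6) or from the soma side (n = 6 and n = 6). Both sides were coated with poly-D-lysine and laminin, an integrin ligand. Poly-D-lysine was at 500 µg/ml on the axonal side and at 100 µg/ml on the soma side. Laminin was at 10 µg/ml on the axonal side and at 1 µg/ml on the soma side. Differences between axons and somata below cannot be told apart from these differences in coating.

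An integrin is a pair of an alpha and a beta subunit that spans the membrane and binds matrix proteins such as laminin, fibronectin or collagen outside the cell. Talins and kindlins bind the beta tail and switch the receptor on, focal adhesion kinase and paxillin gather at it, and vinculin, alpha-actinins, filamin and tensins connect it to actin. In growth cones such contacts couple the moving actin network to the substrate, and they are a known place where cells sense force.

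Libraries held between 16369153 and 43048953 counts. At least 1 count was found for 4263 to 10242 genes in axonal libraries and for 22452 to 24575 genes in soma libraries. Nothing in the labels says that replicates came from separate cultures or animals, so p-values measure the spread between these libraries only. In a principal component analysis of the somata, the first component took 49.5% of the variance. On it the library labelled control soma replicate 4 had a score of 21.0, among the stretched libraries (10.4 to 28.2) and apart from the other control libraries (-34.0 to -23.7). Soma libraries also formed 2 sets by the Y-linked gene Eif2s3y. It was at 24.7 to 28.7 CPM (counts in every 1000000 counts of a library) in control replicates 1, 2 and 3 and stretched replicates 1, 2 and 8, and at 5.39 to 13.2 CPM in control and stretched replicates 4, 5 and 6. The axonal preparations are called pure in the labels. Yet 8 astrocyte markers summed to 3978 to 21496 CPM in control axons and 4052 to 19757 CPM in stretched axons, against 4771 to 12976 CPM in somata. On average most of that sum in axons was Gfap, with means of 14296 (control) and 8633 CPM (stretched) after TMM scaling. Per library 5 to 8 of the 8 were counted in control and 3 to 8 in stretched axons. Against somata 7 of the 8 had a log2 fold change below 0 and 1 above in each condition, and none passed. The 8 somatodendritic and nuclear RNAs summed to 1009 to 2825 CPM in control and 543 to 2924 CPM in stretched axons. In control and stretched somata they summed to 1816 to 2771 and 1264 to 2005 CPM. The 8 neuronal markers summed to 2892 to 5845 CPM in control and 2934 to 5203 CPM in stretched axons. Their sums in somata were 7231 to 8883 and 6973 to 7609 CPM. The 8 oligodendrocyte markers reached 438 and 281 CPM in axons, and 74.1 and 57.3 CPM in somata. Some markers of other cell types were also counted in some axonal libraries. The 8 microglial markers summed to 0 to 562 CPM in control and 0 to 403 CPM in stretched axons, against 31.7 to 88.4 CPM in somata, and 5 of the 8 were at 0 in every control and 1 (P2ry12) in every stretched axon library. The 6 endothelial markers reached 11.1 and 107 CPM in control and stretched axons (somata at most 17.4). At most 1 of them was counted per axonal library, and 5 were at 0 in every stretched axon library. The 5 mural markers reached 742 and 1951 CPM (somata at most 251). In control axons that was Rgs5 alone, with Abcc9, Kcnj8, Pdgfrb and Notch3 at 0 in every library. In stretched axons 1 or 2 mural markers were counted per library, and Kcnj8 and Notch3 were at 0 in all. The 6 fibroblast markers reached 386 and 1162 CPM (somata at most 327). Results below come from bulk RNA, in which fewer cells of a type and less RNA per cell cannot be told apart.

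All 35 genes had counts in every soma library, and Itgb1 led the integrins there. Levels of different genes were compared per kilobase of the longest transcript. In control somata Actn4, an alpha-actinin that crosslinks actin, was highest at 52.7 ± 4.24 CPM per kb (SD, n = 6), with no overlap with the next gene. Vasp and Zyx, which act together in actin assembly at adhesions, followed at 29.2 ± 5.50 and 25.4 ± 12.9 CPM per kb, and Itgb1, the beta subunit shared by the laminin, collagen and fibronectin receptors, had 23.2 ± 6.43 CPM per kb. Their ranges overlapped.

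Among the alpha subunits the order in control somata was Itga5 (4.74 CPM per kb), Itga6 (3.87), Itga3 (2.74), Itga7 (1.96), Itga8 (1.90) and Itgav (1.61), and neighbours in that order overlapped between libraries. Itga5 and Itgav bind RGD-containing matrix proteins, and Itga3, Itga6 and Itga7 are laminin receptors. Itga4, Itgb4, Itgb3, Itga11 and Itga1 lay between 0.317 and 0.540 CPM per kb. Itga2 and Itga9 were at 0.0702 and 0.0528 CPM per kb. Ilk, the integrin-linked kinase, was at 0.381 ± 0.138 CPM, far below its binding partners Lims1 (PINCH, 67.2 ± 7.29 CPM) and Parva (parvin, 46.6 ± 4.88 CPM). In the annotation, 89.7% of the exonic bases of Ilk are shared with Taf10 and Rrp8 on the other strand, and for Vcl (vinculin) 25.5% are shared with Ap3m1. Whether counting used the strand is not given in the sources used here, so the levels of both genes are uncertain.

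**Figure D1:**
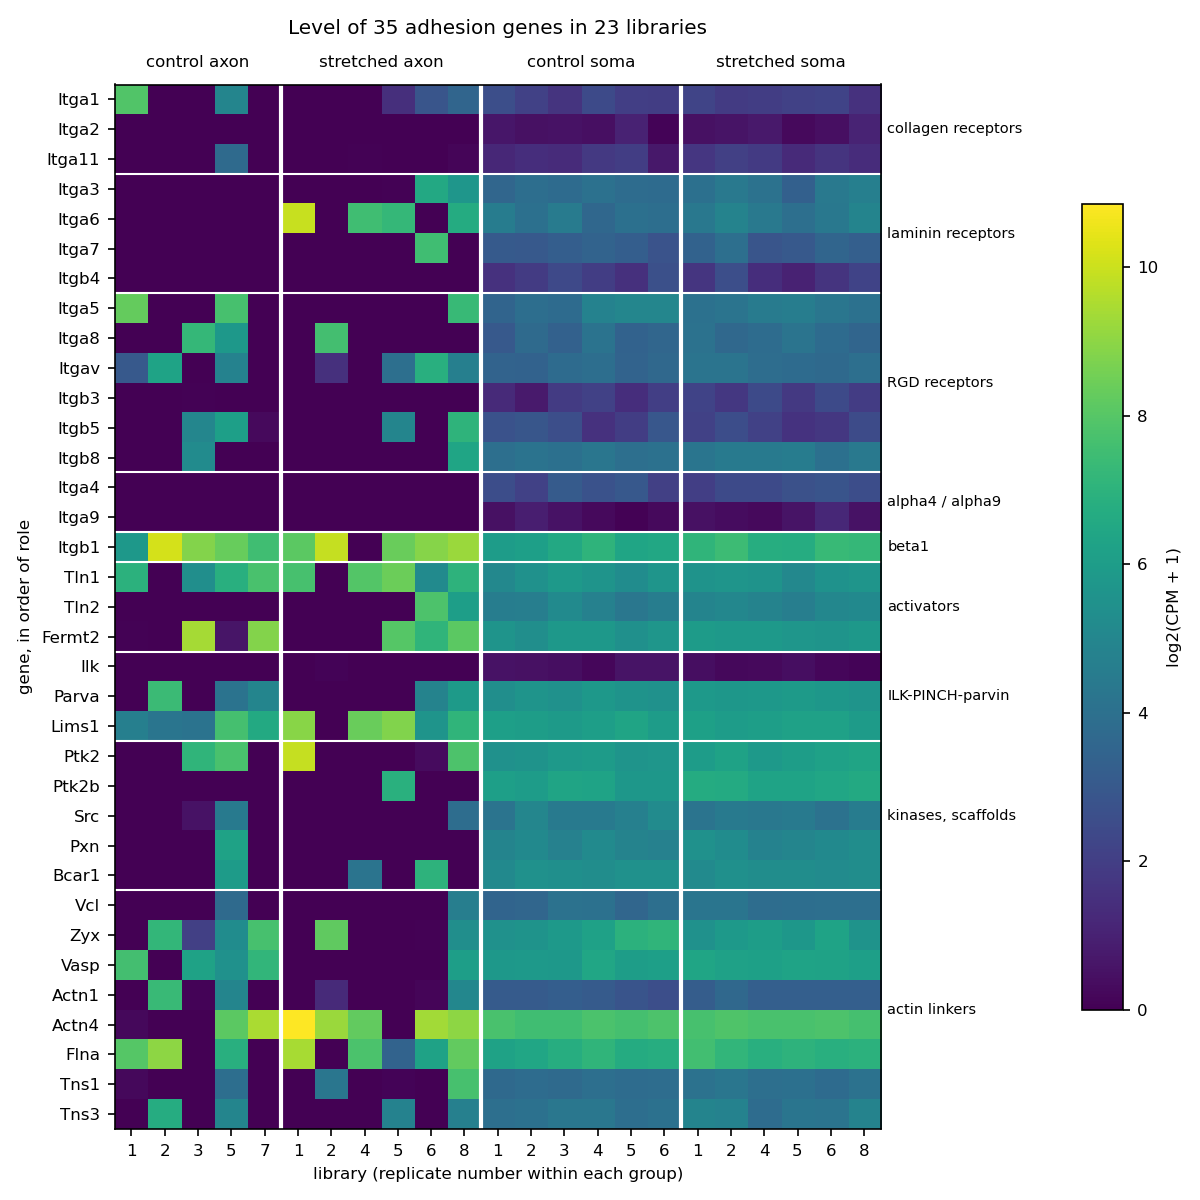
Level of each of the 35 genes (rows, by role) in each of the 23 libraries (columns, by group and replicate number), as log2(CPM + 1). Soma columns are even from library to library, while axonal columns are patchy, and Itgb1, Tln1 and Lims1 are the rows most often filled.

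In axons the same genes were seen in some libraries and missed in others. Of 385 gene and library pairs, 244 had 0 counts, 16 had 1 to 9 counts and 125 had at least 10. The median of those 125 values was 118 CPM, and 76.8% lay above the same gene's mean in somata. These values were picked by reaching 10 counts, in libraries that held fewer genes than somata. The same share over all genes was not taken, so whether this is a trait of these genes cannot be said. Listed genes with any count numbered 13.2 ± 6.87 in control axons (SD, n = 5) and 12.5 ± 6.72 in stretched axons (n = 6). It was highest in the 2 axonal libraries richest in genes of any kind, control replicate 5 (25 genes) and stretched replicate 8 (24 genes).

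The genes seen most often in axons covered the receptor, its activator and an adaptor. Itgb1 and Lims1 had at least 10 counts in 10 of 11 axonal libraries and Tln1, the talin that links integrin tails to actin, in 9. Flna (filamin A) followed with 8, and Actn4 and Itgav with 7 each. No axonal library gave 10 counts for 6 genes: Itga2, Itgb4, Itga4, Itga9, Itgb3 and Ilk, all of them among the 8 genes of lowest level per kb in somata. Across genes, the number of axonal libraries with at least 10 counts followed the mean soma level, with Spearman's rho of 0.68 over the 35 genes and 0.76 over all 13916 genes with a soma mean of at least 1 CPM, a description over genes that share libraries and depth. The median was 3.5 axonal libraries for the 32 listed genes above that level and 3 for all genes.

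**Figure D2:**
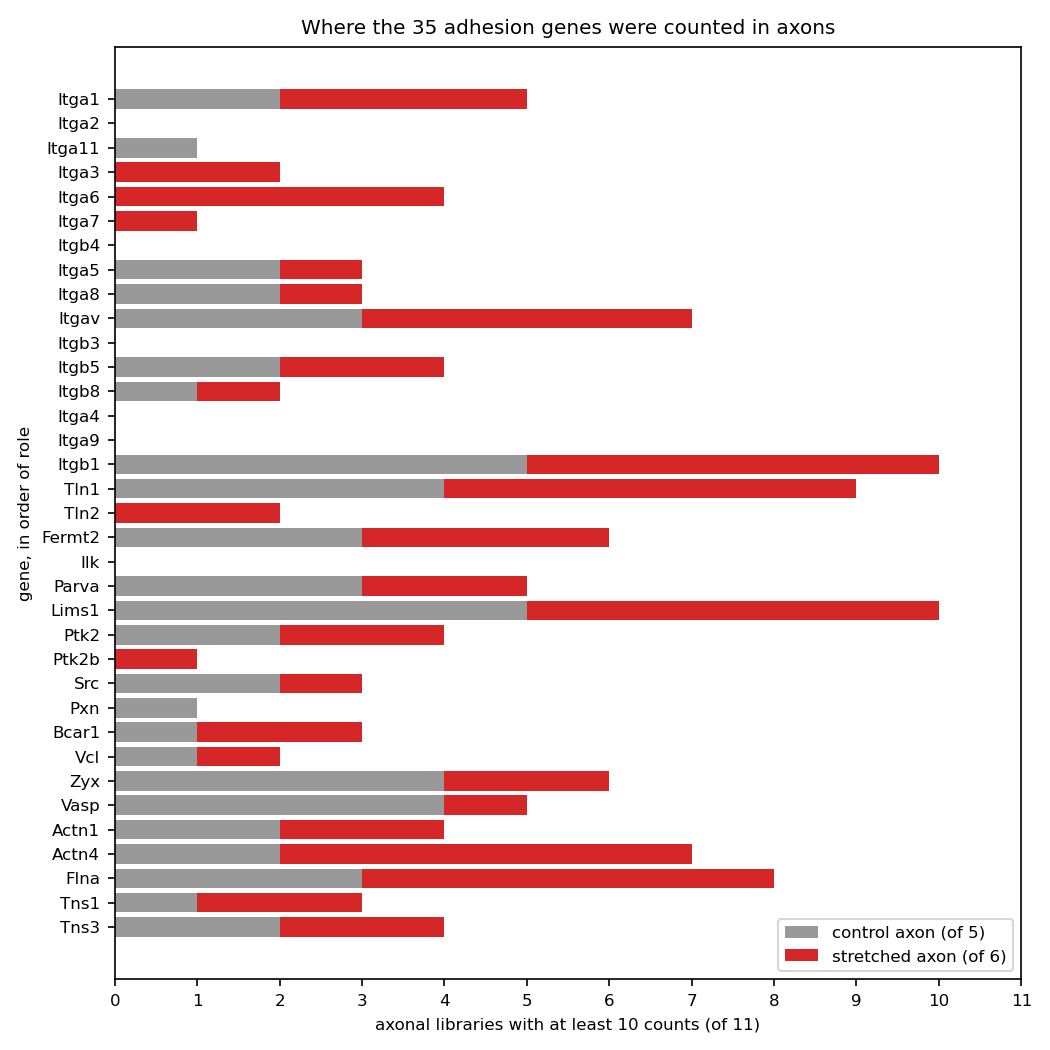
Number of axonal libraries with at least 10 counts for each gene (rows, by role), with control libraries in grey and stretched libraries in red. Itgb1 and Lims1 reach 10 of 11 libraries, and Itga3, Itga6, Itga7, Tln2 and Ptk2b have red bars alone.

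With the gradient, 3 of the 35 genes rose in somata: Itgb1 and both focal adhesion kinases, Ptk2 (FAK) and Ptk2b (Pyk2, its calcium-responsive relative). None fell by edgeR, while DESeq2 and limma voom each called 1 lower (Src). The other 30 genes tested did not pass, and Itga9 and Ilk were too low to be tested. Of all 15632 genes tested, 25.1% passed (11.2% higher and 13.9% lower), so 3 of 33 is fewer than that background gives. The 3 higher calls are near the share of all genes called higher, and the shortfall lies in the 0 lower calls. The log2 fold changes of the 33 genes had a median of 0.19 (23 above 0 and 10 below), beside -0.03 for all genes. An unadjusted edgeR p under 0.05 was found for 9 of the 33, fewer than the 39.4% of all genes.

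Itgb1 lies on chromosome 8 (mm10, 128685654 to 128733200, plus strand). Its level was 62.5, 85.9 and 132 CPM in control somata (lowest, median and highest of 6 libraries) and 103, 142 and 174 CPM in stretched somata. The groups overlapped through the library labelled control soma replicate 4, the highest control. Group means stood at 88.4 ± 24.5 and 138 ± 28.0 CPM (SD, n = 6 each). The log2 fold change was 0.60 (SE 0.17) and passed with an edgeR adjusted p of 0.0191. Without that library the change was 0.74 (SE 0.14, adjusted p = 0.00113). As it was the highest control and scored among the stretched libraries, leaving it out raises the change by construction and is no further support. Over all single omissions the change spanned 0.52 to 0.74 (edgeR adjusted p of 0.00113 to 0.0445). A block for replicate number was fitted on the libraries whose number was in both groups. With it the change was 0.61 (SE 0.21, edgeR adjusted p = 0.0703) and did not pass.

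Ptk2 (chromosome 15, 73205102 to 73423280, minus strand) was at 43.8, 49.7 and 60.2 CPM in control somata and at 55.3, 68.3 and 79.1 CPM in stretched somata (lowest, median and highest). The upper end of the controls reached into the stretched range. Its log2 fold change was 0.37 (SE 0.10, edgeR adjusted p = 0.0175). With an offset for transcript length and GC content it was 0.20 (adjusted p = 0.134) and did not pass. Nor did it pass with the block for replicate number (0.35, adjusted p = 0.0579).

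Ptk2b (chromosome 14, 66153257 to 66281052, minus strand) was at 52.2, 65.8 and 79.3 CPM in control somata and at 77.2, 90.1 and 102 CPM in stretched somata. Only control replicates 3 and 4 reached into the stretched range. The log2 fold change was 0.41 (SE 0.12, edgeR adjusted p = 0.0212). It kept its call with the length and GC offset (0.36, adjusted p = 0.0338), but not without stretched soma replicate 1 (0.35, adjusted p = 0.0554).

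**Figure D3:**
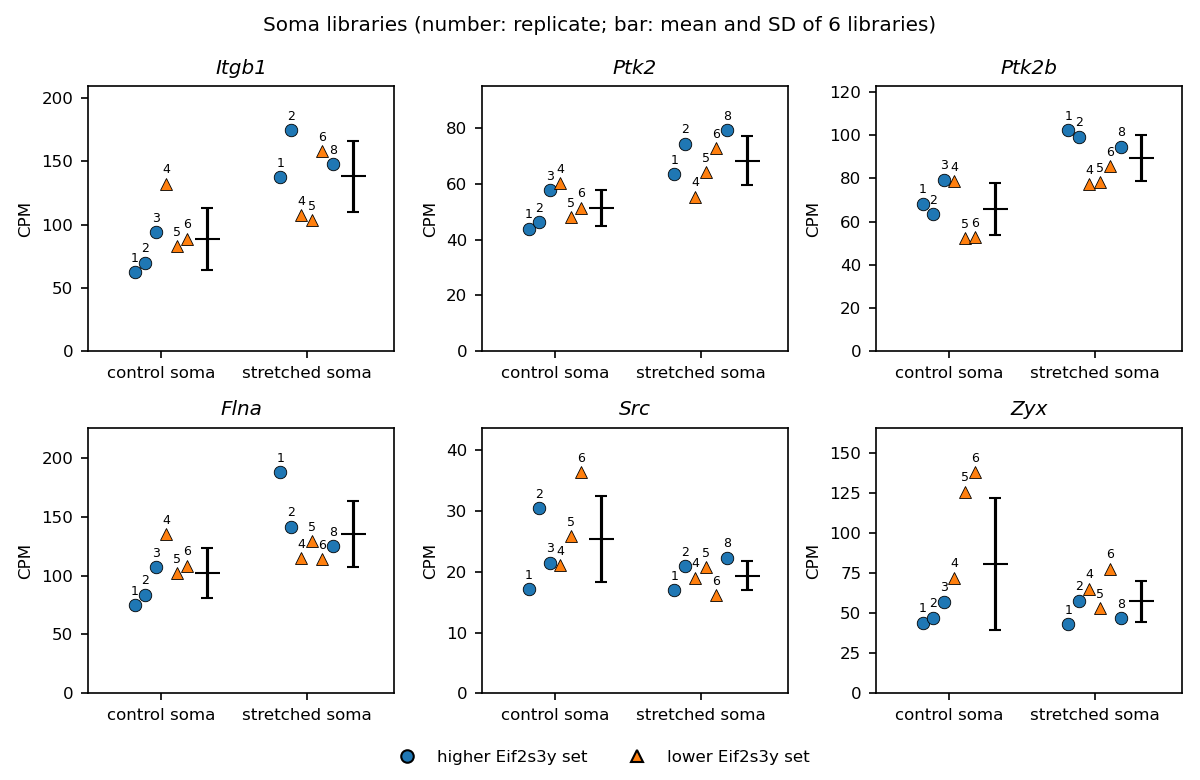
Level in CPM of 6 genes in each soma library, with replicate numbers beside the points, shapes for the 2 Eif2s3y sets and bars for mean and SD (n = 6). Control replicate 4 is the highest control for Itgb1, Ptk2 and Flna, and control replicates 5 and 6 stand above the rest for Zyx.

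The remaining genes are described by role, and none passed. Among the laminin receptors Itga3 and Itga6 had log2 fold changes of 0.34 and 0.35, Itga7 of 0.23 and Itgb4 of -0.31. Of the RGD receptors, Itgav (0.32, adjusted p = 0.0915) and Itgb8 (0.26, adjusted p = 0.113) had an unadjusted p under 0.05, while Itgb3 was at 0.61 and Itgb5 at -0.51 with adjusted p of 0.167 and 0.231. The activators had small values, with Tln1 at -0.02, Tln2 at 0.20 and Fermt2 (kindlin-2) at 0.12. Lims1 was at -0.03 and Parva at 0.16.

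Src, the kinase that partners with FAK, had the lowest p among the genes below 0, at -0.44 (edgeR adjusted p = 0.0631). Its values spread from 17.1 to 36.4 CPM in controls and from 16.2 to 22.3 CPM in stretched somata. Of the actin linkers, Flna (0.37, adjusted p = 0.0682), Tns3 (tensin-3, 0.41, adjusted p = 0.0986) and Actn1 (0.33, adjusted p = 0.116) had an unadjusted p under 0.05. Without the library labelled control soma replicate 4, Flna (0.45, adjusted p = 0.0164), Itgav (0.37, adjusted p = 0.0373) and Vasp (0.26, adjusted p = 0.0297) passed as higher, beside Itgb1, Ptk2 and Ptk2b. Src (-0.50, adjusted p = 0.0285) then passed as lower. That control scored among the stretched libraries, and leaving it out raised the calls over all genes from 3929 to 6072. These added calls are therefore no separate support.

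The size of the change differed in estimate between the 2 Eif2s3y sets. In the set with the higher level (3 control and 3 stretched libraries) 9 of 34 genes passed as higher, against 16.5% of all genes: Itgb1 (1.02, edgeR adjusted p = 0.0026), Ptk2, Ptk2b, Itga3, Itgav, Pxn, Vasp, Flna (0.77, adjusted p = 0.0123) and Tns3 (0.80, adjusted p = 0.00353). In the other set 0 of 15718 genes passed (2739 at an unadjusted p under 0.05), and Itgb1 was at 0.25 (adjusted p = 0.519), Ptk2 at 0.24, Ptk2b at 0.37 and Tns3 at -0.03. A test of the difference between the sets passed for 0 of 16751 genes (1247 at an unadjusted p under 0.05). Of the 35 genes 9 had an unadjusted p under 0.05, Itgb1 among them with a difference of 0.77 (SE 0.29, unadjusted p = 0.0195, adjusted p = 0.618). When the library labelled control soma replicate 4 was left out of the lower set, Zyx (-1.06, adjusted p = 0.00176), Src (-0.79, adjusted p = 0.0107) and Itga5 (-0.59, adjusted p = 0.0167) passed as lower and Ptk2b (0.56, adjusted p = 0.00406) as higher. Those 5 libraries have control replicates 5 and 6 as their only controls, in which Zyx was at 126 and 138 CPM against 44.2 to 72.3 CPM in the other control somata. Here too the control left out was the one that scored among the stretched libraries.

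**Figure D4:**
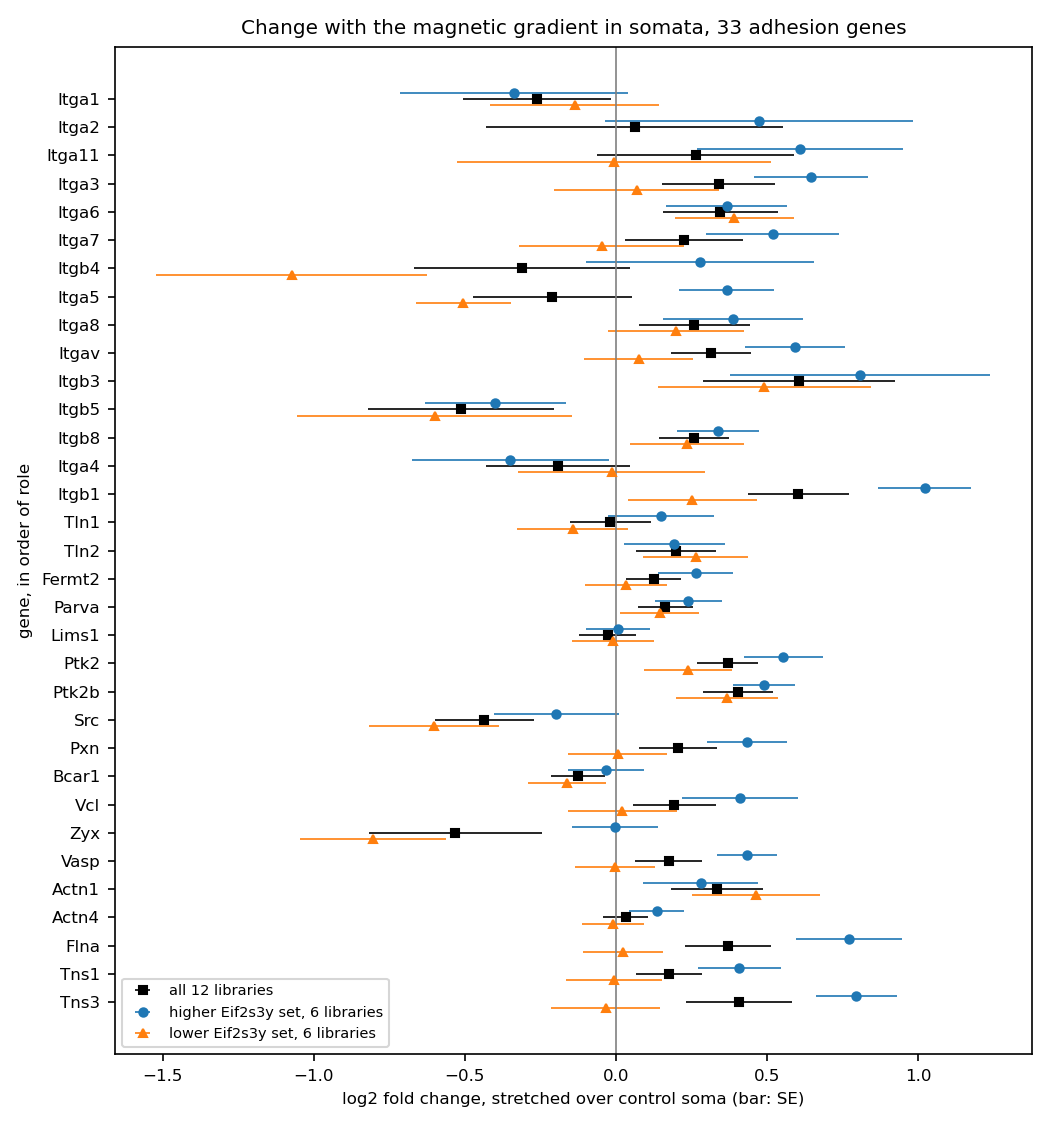
Log2 fold change of stretched over control somata for the 33 genes tested (rows, by role), over all 12 libraries (black) and within each Eif2s3y set (blue and orange), with SE as bars. Itgb1, Flna and Tns3 are far to the right in the higher set and near 0 or little above it in the lower set, and Ptk2b is similar in both.

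Marker genes were read beside these changes, with 25.1% of all genes called. Of 8 neuronal markers 5 were called, with Gap43 (-0.32), Stmn2 (-0.36), Tubb3 (-0.27) and Rbfox3 (-0.90) lower and Syt1 (0.36) higher, and the 8 summed to 7231 to 8883 CPM in controls and 6973 to 7609 CPM in stretched cultures. Of 8 somatodendritic and nuclear RNAs, Malat1 (-0.96) and Camk2a (-0.26) fell and Shank1 (0.57) rose, and of 6 oligodendrocyte markers tested Mog (0.73) rose. In somata 3 of 8 microglial markers fell with the gradient (C1qa -1.35, C1qb -0.80, Tyrobp -0.80), and the 8 summed to 46.5 to 88.4 CPM in controls and 31.7 to 40.9 CPM in stretched cultures. The mural marker Rgs5 rose (0.38, edgeR adjusted p = 0.0345), and 5 mural markers summed to 135 to 232 CPM and 191 to 251 CPM. None of 8 astrocyte markers passed, and Dcn was the 1 of 6 fibroblast markers that fell. The part of these markers' cells in the changes of Itgb1, Ptk2 and Ptk2b was not tested.

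Other genes of the pathway moved both ways in somata. Of 55 further adhesion proteins tested, 11 rose and 10 fell, beside 11.2% and 13.9% of all genes. Those that rose include Kank1 (0.67, edgeR adjusted p = 0.00761), which links adhesions to microtubules, Sorbs2 (0.41, adjusted p = 0.0122), Enah (0.35, adjusted p = 0.0202), a relative of Vasp, and Myh9 (0.54, adjusted p = 0.0478), a non-muscle myosin heavy chain. Arhgef7, Pak1, Crkl, Yes1, Myh10, Nedd9 and Krit1 were the others that rose. Those that fell include the myosin light chain Myl9 (-0.80, adjusted p = 0.00616) and the kinase Fyn (-0.70, adjusted p = 0.0127). Sharpin (-0.47, adjusted p = 0.0073) and Itgb1bp1 (-0.44, adjusted p = 0.00796), 2 known negative regulators of integrin activation, also fell. The others that fell were Lims2, Myl12a, Rac1, Tgfb1i1, Trip6 and Tes. Integrin activation was not tested. Of 26 matrix ligands tested, Agrn (0.67, adjusted p = 0.0100), Lamb1 (0.46, adjusted p = 0.0328), Npnt (0.46, adjusted p = 0.0343) and Lama2 (0.43, adjusted p = 0.0487) rose and Spp1 (osteopontin, -1.31, adjusted p = 0.0185) fell, which makes 5 of 26 called beside 25.1% of all genes. Of 5 further integrin and integrin-like genes tested, the integrin-like gene Itgbl1 rose (0.37, edgeR adjusted p = 0.0211).

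Promoter sequence was read for Itgb1. RefSeq promoters (GRCm38.p6) matched 26 of the 35 genes, 31 promoters in all, with none matched for Ptk2 or Ptk2b. The 250 bases before the Itgb1 start, chr8:128685404-128685653 on the plus strand, are shown because Itgb1 was the integrin gene that passed, with capitals marking GGAATG, the core letters bound by TEAD factors, which act with the force-responsive YAP.
Itgb1: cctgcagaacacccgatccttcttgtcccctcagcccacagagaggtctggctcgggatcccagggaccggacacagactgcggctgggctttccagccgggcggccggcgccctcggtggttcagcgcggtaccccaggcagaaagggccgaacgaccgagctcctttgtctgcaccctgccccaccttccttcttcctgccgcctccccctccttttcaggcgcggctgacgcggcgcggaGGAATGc
The match begins at -7 from the start. Searched on both strands, GGAATG was in 12.9% of the 31 promoters (Actn4, Flna, Itgb1 and Vcl) and in 12.6% of 32851 promoters of the same length. GGGCGG, the core of an Sp1 site, was in 61.3% and 32.7%. The Itgb1 sequence also holds it, unmarked. The CArG box bound by serum response factor was in 6.45% (Fermt2 and Vcl) and 1.47%. A match describes letters and shows no binding.

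In axons none of these genes passed with the gradient when the axonal libraries were fitted alone. Of the 35 genes 11 were counted widely enough to be tested, and 0 passed, as did 0% of all 4947 genes tested (edgeR, 46 genes or 0.93% at an unadjusted p under 0.05, none of them listed here). DESeq2 called 18 genes and limma voom 10, also with none of the 35. By contrast, 1 fit over all 4 groups, which takes its spread from the somata too, called 24% of 16113 genes (14.2% higher and 9.8% lower), and of 34 listed genes 5 as higher and 2 as lower. Itgb1 was at 54.9, 1130, 456, 324 and 185 CPM in control axons (replicates 1, 2, 3, 5 and 7) and at 0, 399 and 960 CPM in stretched axons (lowest, median and highest of 6), where replicate 4 had no count. The groups spanned each other, and the log2 fold change was 0.04 with an SE of 1.27. On simulated counts with the spread of these libraries none of 200 genes changed 4-fold was recovered, so a change of that size was not detectable here.

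Lims1 and Tln1 varied as widely. Lims1 was at 24.4, 17.4, 16.6, 198 and 95.5 CPM in control axons and at 0, 230 and 487 CPM in stretched axons (log2 fold change 1.59, SE 1.80). Tln1 was at 126, 0, 39.8, 113 and 215 CPM in control axons and at 0, 166 and 344 CPM in stretched axons (0.67, SE 2.02). In somata neither passed, at 67.2 ± 7.29 and 67.8 ± 5.27 CPM for Lims1 and 44.5 ± 8.66 and 45.1 ± 6.55 CPM for Tln1 (control and stretched, SD, n = 6).

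**Figure D5:**
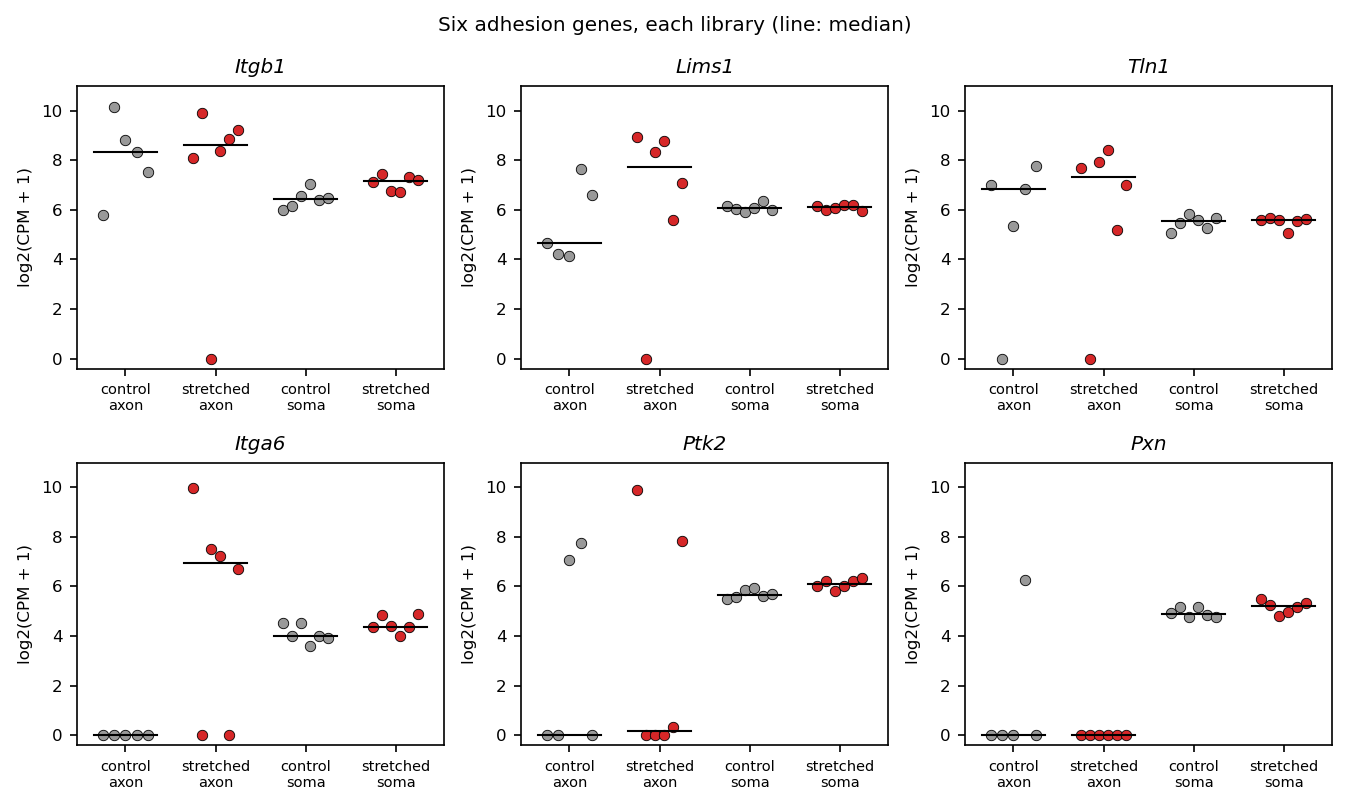
Level of 6 genes as log2(CPM + 1) in each library of the 4 groups, with lines at the medians. Itgb1 is filled in 10 of 11 axonal libraries, Itga6 has 4 of 6 stretched axon libraries above 0 and all 5 control axon libraries at 0, and Pxn has 1 axonal library above 0.

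Some genes were counted in the axons of 1 condition alone, mostly in few libraries. At least 10 counts were reached by 5 genes in stretched axons but in no control axon library, by 2 in control axons alone, by 22 in both and by 6 in neither. Of the 29 genes seen, the 5 are 17.2% and the 2 are 6.9%, and of all 13408 genes with 10 counts in an axonal library 19.6% were seen in stretched axons alone and 14.3% in control axons alone (33.9% in all). The laminin receptor Itga6 was at 0 in all 5 control axon libraries and at 990, 183, 151 and 102 CPM in stretched replicates 1, 4, 5 and 8, with 0 in replicates 2 and 6. The other laminin receptors Itga3 (91.8 and 50.7 CPM in stretched replicates 6 and 8) and Itga7 (182 CPM in stretched replicate 6) were also at 0 in all control axon libraries. The talin Tln2 was at 226 and 67.3 CPM in stretched replicates 6 and 8, and Ptk2b at 118 CPM in replicate 5. In the other direction Pxn (paxillin, 75.5 CPM) and Itga11 (12.4 CPM) reached 10 counts in control replicate 5 alone, the library with the most genes. Ptk2 was seen in both groups, at 135 and 214 CPM in control replicates 3 and 5 and at 944 and 228 CPM in stretched replicates 1 and 8. Among these only genes with enough counted libraries could enter the axonal comparison, and none of the 7 did.

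Compared with somata, control axons had more Itgb1, while 11 other listed genes had 0 or 1 count over all 5 libraries. Of 32 genes tested 1 passed as higher and 8 as lower, against 0.856% and 34.4% of 14728 genes (35.3% in all). The median log2 fold change was -0.30, unchanged with genes at 0 set to their bound, beside -1.40 for all genes. Itgb1 averaged 430 ± 420 CPM in axons (SD, n = 5) and 88.4 ± 24.5 CPM in somata (SD, n = 6), and the log2 fold change was 1.99 (SE 0.64) with an edgeR adjusted p of 0.0292. Control axon replicate 1, at 54.9 CPM, lay below every soma library. The call was lost without control axon replicate 2 (1.37, adjusted p = 0.11) and without each of control soma replicates 1, 2, 3, 5 and 6 (adjusted p of 0.0607 to 0.0736). The astrocyte markers, mostly Gfap, that summed to as much as 21496 CPM in these axons were not tested for their part in it.

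The 8 genes that passed as lower in control axons are among the 11 with 0 or 1 count there. A bound was taken from 3 counts in the shallowest control axon library (0.167 CPM), which allows for counting error alone, as reads copied by PCR are not separate molecules. It does not allow for genes missed altogether in an axonal library, so the folds describe counts and not RNA in the axons. Against it, Ptk2b was at least 394-fold lower in control axons than in somata, Itga6 at least 99.9-fold, Itga3 at least 79.8-fold, Itga7 at least 47.1-fold, Itga4 at least 31.6-fold and Itgb4 at least 18.7-fold. Tln2 had 1 count in all 5 libraries (soma to axon ratio 3263, 95% exact Poisson interval 586 to 128866) and Itgb3 also had 1 (ratio 277, interval 49.8 to 10956). In somata these genes ranged from 2.14 CPM (Itgb3) to 65.7 CPM (Ptk2b). The other 23 genes did not pass in either direction.

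In stretched cultures Itgb1 was again higher in axons on average, 437 ± 325 against 138 ± 28.0 CPM (SD, n = 6 each), but the log2 fold change of 1.20 did not pass (SE 1.19, edgeR adjusted p = 0.695). Replicate 4, with 0 counts, set that spread: without it the value was 1.46 (SE 0.38, adjusted p = 0.00932). Of 32 genes tested 0 passed as higher and 5 as lower, against 0.843% and 28.4% of 14466 genes (29.3% in all). The median was -0.06, also at the bounds, beside -1.13 for all genes. A bound from 3 counts in the shallowest stretched axon library (0.183 CPM) has the same limits as that for control axons. Against it, Pxn was at least 194-fold lower in axons, Itga4 at least 25.8-fold, Itgb3 at least 18.3-fold and Itgb4 at least 14.2-fold. Itga11 had 3 counts in the 6 libraries (soma to axon ratio 97.8, interval 33.5 to 474). Itga4 and Itgb4 were thus at 0 in all 11 axonal libraries, with soma means of 5.27 and 3.13 CPM in control cultures.

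Among other genes of the pathway, control axons were lower than somata for 2 of 3 further integrins (Itgb2 and Itga2b, both of blood cells), 14 of 55 further adhesion proteins and 6 of 26 ligands, and higher for 2 adhesion proteins, beside 34.4% lower and 0.856% higher of all genes. The 2 were Myl12a, a myosin light chain (115 ± 25.4 against 27.2 ± 3.84 CPM after TMM scaling, edgeR adjusted p = 0.00827), and Git1, an adaptor that binds paxillin (138 ± 47.8 against 40.5 ± 1.92 CPM, adjusted p = 0.0176). In stretched cultures 2 of 3, 8 of 53 and 4 of 26 were lower (28.4% of all genes), and Myl12a (157 ± 104 against 22.3 ± 2.00 CPM, adjusted p = 0.00453) and Spp1 (2008 ± 1623 against 185 ± 48.5 CPM, adjusted p = 0.00472) were higher. In axons 0 of the 33 pathway genes tested passed with the gradient by edgeR, and 0 had an unadjusted p under 0.05.

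The change with the gradient was last compared between compartments in 1 fit over all libraries. Of 34 genes tested 7 passed, beside 21.8% of 16113 genes: Itga3, Itga6, Itga7, Tln2 and Ptk2b with a larger change in axons (12.8% of all genes) and Itga11 and Pxn with a smaller one (8.93%). These are the genes seen in the axons of 1 condition alone, and their fitted values, which rest on groups at or near 0 counts, depend on the prior count and are not sizes of change. No result remained for Itga7 without stretched axon replicate 6, for Ptk2b without stretched axon replicate 5, or for Pxn and Itga11 without control axon replicate 5. Itga3, Itga6 and Tln2 passed whichever single library was left out. Control axons held 0 counts of Itga3 and Itga6 and 1 of Tln2 in all, which omitting 1 library cannot raise. Those passes are therefore no support for a change. None of the 7 passed with limma voom or with a block for replicate number. For Itgb1 the difference between compartments was -0.59 (SE 1.40) and did not pass.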

How the data were processed

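The authors deposited raw read counts, as whole numbers for each Ensembl gene, for 23 libraries. Per the submitters' processing notes, fastp 0.20.1, STAR 2.7.08a, HTSeq 0.13.5 and build mm10 were used. The annotation, strand setting and any use of molecular identifiers are not given in the sources used here. Amplified cDNA from poly(A) RNA was sequenced, per the labels' protocols, so counts follow amplification where input was low. The 5 rows of uncounted reads were left out.

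Each comparison was fitted over all genes with edgeR 4.0.16 in R 4.3.3 (filterByExpr, TMM, robust quasi-likelihood test, Benjamini-Hochberg adjusted p under 0.05) on its own libraries, and the interaction over all 4 groups. SE is the log2 fold change divided by the square root of F. CPM without further note is scaled by a library's total count. Lengths, coordinates and overlaps come from GENCODE for mm10. DESeq2 1.42.0, limma 3.58.1 and offsets by mgcv 1.9.3 served as alternatives. Genes named with values are those that passed (at most 8 per comparison) or had counts in at least 9 axonal libraries, plus each role's members. Members and lists were chosen with earlier results of these data known. Scripts were tested on simulated counts: in somata 92% of 200 genes changed 2-fold were recovered (15409 genes), in axons 0% (4080 genes). No 2 replicates agreed within sampling noise (smallest chi-square per degree of freedom 6.11).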

Additional observations from a re-analysis of the deposited data

Results flagged for a closer look

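In 52 groups of 4 to 10 values, 10 had a highest or lowest library far from the rest by Dixon's criterion. For normally spread values chance gives about 1 of 20 groups, but that rate does not apply here. Axonal groups held many zeros, and where only 1 library had a count it met the criterion by construction. Most of the genes were also picked by calls in these same data. In control axons these were Itga11 at 12.4 CPM and Pxn at 75.5 CPM in replicate 5, Tln2 at 0.0232 CPM in replicate 5 and Itgb3 at 0.0441 CPM in replicate 3. The last 2 are single counts. In stretched axons they were Itga6 at 990 CPM and Ptk2 at 944 CPM in replicate 1, Itga7 at 182 CPM and Tln2 at 226 CPM in replicate 6, and Ptk2b at 118 CPM in replicate 5. In somata Tln1 at 32.1 CPM in stretched replicate 5 was a lowest value.

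The change with the gradient differed between axons and somata in the interaction test for 7 genes. The fitted log2 differences were 11.65 for Itga3, 14.69 for Itga6, 12.07 for Itga7, 11.75 for Tln2, 11.18 for Ptk2b, -7.05 for Itga11 and -11.94 for Pxn. They rest on groups with 0 to 3 counts in all axonal libraries of 1 condition and measure no fold.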

How the results depend on the processing

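In somata the 3929 genes called became 0 with all 4 groups in 1 fit, 2499 with the length and GC offset, 2072 with that offset and the replicate block, and 0 in the lower Eif2s3y set alone. The listed genes called higher were 5 with limma voom, 0 with 4 groups in 1 fit, 1 with block and offset, 9 and 0 in the higher and lower Eif2s3y sets, 1 in the lower set without control soma replicate 4 and 7 without both soma libraries numbered 4. Those called lower were 1 with DESeq2 (Src), limma voom or the set as covariate, and 3 in the lower set without control soma replicate 4. Leaving out 1 library at a time gave 2666 to 6072 genes, 2 to 6 listed genes higher and 0 to 1 lower, with 6072 and 6 without control soma replicate 4. Src was called lower without that library and without control soma replicate 1 (-0.52).

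In axons alone, DESeq2 called 18 genes, limma voom 10, and 4 groups in 1 fit 3870, with 5 listed genes higher and 2 lower. The change of Itgb1 turned to -1.58 with limma voom and spanned -0.29 to 0.74 without single libraries.

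Control axons against somata gave 10714 genes with no filter on low counts, 9798 with limma voom and 8151 without control axon replicate 5, which is also the axonal library with the most genes. Single omissions gave 4542 to 8151 genes, 0 to 1 listed genes higher and 8 to 14 lower, with 17 lower by limma voom and 14 without control axon replicate 5. The call of Itgb1 as higher became 0 calls with no filter, limma voom, the replicate block and 4 groups in 1 fit. Stretched axons gave 10931, 10084 and, without replicate 8, 6499 genes, within 4174 to 6499 over single omissions. Listed genes numbered 0 to 2 higher (1 without replicate 4 or 5 and 2 without replicate 2) and 5 to 11 lower, with 8 for no filter, 20 for limma voom and 11 without replicate 8. Itgb1 turned to -1.36 with limma voom. Scaling by total counts moved the median of all genes from -1.40 to -1.27 in control and from -1.13 to -0.73 in stretched cultures, with the same numbers of listed genes called.

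The interaction gave 1464 genes with DESeq2 (3 listed genes higher, 1 lower) and 0 with limma voom (0 and 0). Single omissions gave 4 to 8 listed genes higher and 0 to 8 lower, and without both richest axonal libraries 4 were lower and Itga11 was at 0.86. Fitted values without single libraries spanned -8.14 to 1.89 for Itga11, -0.35 to 12.34 for Itga7, -0.52 to 11.50 for Ptk2b and -0.90 to 0.0089 for Itgb1. In somata Itgb8 turned to -0.0785 with the offset and -0.13 with block and offset, and Tns3 to -0.0343 in the lower set. The cause of these shifts was not tested.

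Same-numbered soma libraries deviated together with a mean correlation of 0.211 (5 pairs, 0.0746 to 0.285), beside -0.0337 for libraries of different number. In the other comparisons the means for same-numbered libraries lay between 0.005 and 0.0558. Fits without further note took the libraries as unpaired, and whether the numbers mark shared cultures was not tested. Of 10 soma libraries with a partner, 4 correlated best with their own number. With the replicate block somata gave 3227 genes and 2 listed genes higher, Ptk2b and Itgb3 (Itgb1 at 0.61, adjusted p = 0.0703, and Ptk2 at 0.35, adjusted p = 0.0579, were not called), axons 0 genes, control axons against somata 5051 genes, stretched axons against somata 7687 genes with 14 listed genes lower, and the interaction 6 genes with 0 listed genes in either direction.

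Listed genes per soma library were 35 at 1 count, 34.7 and 34.8 (control and stretched) at 3 counts and 33.7 and 33.5 at 10 counts. Total counts were alike in axons and somata (means of 22.3 to 25.9 M, where M is 1000000 counts), while the biological coefficient of variation was 2.39 in axons and 0.24 in somata. A gene at 0 in axons may have been missed, and simulated 4-fold changes were recovered for at most 0.5% of genes in any comparison with axonal libraries. Alternatives on the lower set without control soma replicate 4, on both libraries numbered 4 and on the richest axonal libraries, and the test between sets, were chosen after seeing the data.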
